A study of Mus musculus with 12 samples.

Results

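Gene expression in the striatum of mice without interleukin-18 (IL-18) was set against that of wild-type mice on 1 pair of arrays, the 2 striatum arrays among 12 of the series. The comparison covered the 12302 bright probes among the 41174 gene probes of the array. A probe was kept when the scanner software rated it well above background on both striatum arrays, which held for 24604 probes, and when its mean level exceeded the median of those, at -0.58. A level here is log2 of the processed signal less the 75th percentile of its own array, and a difference is the KO level minus the WT level. Of the bright probes, 8826 carried the symbol of a gene, and they stood for 7341 named genes. The size of a difference was not itself a criterion, but a large one could exclude a probe. A low level on either array could cost it the background rating or pull its mean under the limit, as for Il18 below.

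The study measured 6 brain regions in both genotypes. Both striatum arrays held pooled RNA of 5 male mice aged 12 weeks, given as strain C57BL/6, and the Cy3-labelled target was made from 400 ng of it. WT denotes wild type and KO denotes IL-18-/-. The animals came from F2 litters of a cross between IL-18-/- males and C57BL/6 females, the brains had been perfused with saline, and the striatum was taken as a coronal slice at the level of bregma. With 1 pool per genotype there is no measure of the spread between animals, so no difference within the striatum was tested. The slice can hold tissue beside the striatum itself, and in pooled tissue RNA fewer cells of a type and less RNA per cell cannot be told apart.

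The striatum is the input nucleus of the basal ganglia. Most of its neurons are GABAergic projection neurons, which carry dopamine D1 or D2 receptors and receive glutamate from the cortex and thalamus and dopamine from the midbrain. IL-18 is a cytokine of the interleukin-1 family that is cut to its active form by caspase-1 and signals through Il18r1 and Il18rap, MyD88 and IRAK kinases to NF-kB; in brain it is known mainly from microglia and some neurons.

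The labels were checked first. Il18 had 10 spots on the array. Its level was 1.12 on the WT array, with spots from 1.04 to 1.19, and -3.26 on the KO array, with spots from -3.79 to -2.78, of which 9 were well above background. The difference was -4.38 with a spot error of 0.09, the error of a log2 difference that the scanner software gives from the 2 arrays, and -2.73 with a normexp background correction. The corresponding difference was -4.16 in the olfactory bulb, -4.26 in the prefrontal cortex, -3.73 in the hippocampus and -4.52 in the hypothalamus. Il18 was not among the bright probes. Its mean level of -1.07 lay under their limit, and not every KO spot was well above background. Of 29 projection neuron genes with a bright probe, 27 had both striatum arrays above all 8 arrays of those 4 other regions. These 29, of 36 on the array, were kept because they were bright on the striatum arrays. That choice favours high striatum levels, so the count is no independent check of the tissue label.

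The striatum arrays were the dimmest of the 12, with a 75th percentile of 208 on WT and 272 on KO against 502 to 768 elsewhere. The WT array had 60.8% of its spots well above background and the KO array 67.1%. The KO array alone rated 2867 probes well above background, and the WT array alone 281. Choroid plexus genes were part of this. Of 13 on the array, 4 were well above background on both arrays, 7 on the KO array only, 0 on the WT array only and 2 on neither. Over all 41174 gene probes, 2867 were well above background on the KO array only. Ttr, the thyroid hormone carrier that defines choroid plexus, was at least 14.3-fold higher on the KO array, at -4.20 on WT, not well above background, and 0.05 on KO. The bound is taken against the lowest signal that the WT array rated well above background. For the other choroid plexus genes rated on the KO array only, it ran from 1.44-fold (Kl) to 4.40-fold (Sostdc1). The summed level of the 13 genes was 2.07 on WT and 2.68 on KO, and their single levels ran from -5.71 to 1.15 and from -6.05 to 1.31. Only Clic6 and Cdkn1c of this list had a bright probe, with differences of 0.16 and -0.18. The part of such tissue in the results below was not tested.

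Most bright probes read nearly the same on both arrays. The median difference was -0.05, and the 5th and the 95th percentiles were -0.37 and 0.32, with 4929 probes higher and 7373 lower on the KO array. The whole range ran from -3.11 to 2.69. Repeated spots of a probe varied little against that range. Over 80 bright probes with 10 spots each, the median SD of the difference between spots was 0.09, and over 1323 genes with 2 or more bright probes the median SD between the probes of a gene was 0.10. The median spot error of a bright probe was 0.20, and the SD of all differences was 0.24. Their median absolute deviation was 0.13, so the spread between probes of a gene was not far below that of all bright probes. These errors cover the arrays only, not the animals.

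In all, 66 bright probes (0.536%) differed 2-fold or more, of which 20 (0.163%) were higher and 46 (0.374%) were lower in the KO striatum. The same rule applied to the other regions gave 0.132% in the olfactory bulb, 0.213% in the hypothalamus, 0.641% in the hippocampus and 1.73% in the prefrontal cortex. On the striatum's own bright probes, the shares were 0.195%, 0.13%, 0.902% and 3.1% in the same order. At 1.5-fold the striatum had 309 probes (2.51%), 144 higher (1.17%) and 165 lower (1.34%). Without the limit on brightness, 389 probes (1.58%) differed 2-fold, 189 higher (0.768%) and 200 lower (0.813%), so the directions were nearly even there. Among the 6151 brightest probes, 4 were higher and 28 lower. The 66 probes named 40 genes, 13 higher and 27 lower. Another 26 had no gene symbol in the tables used.

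**Figure D1:**
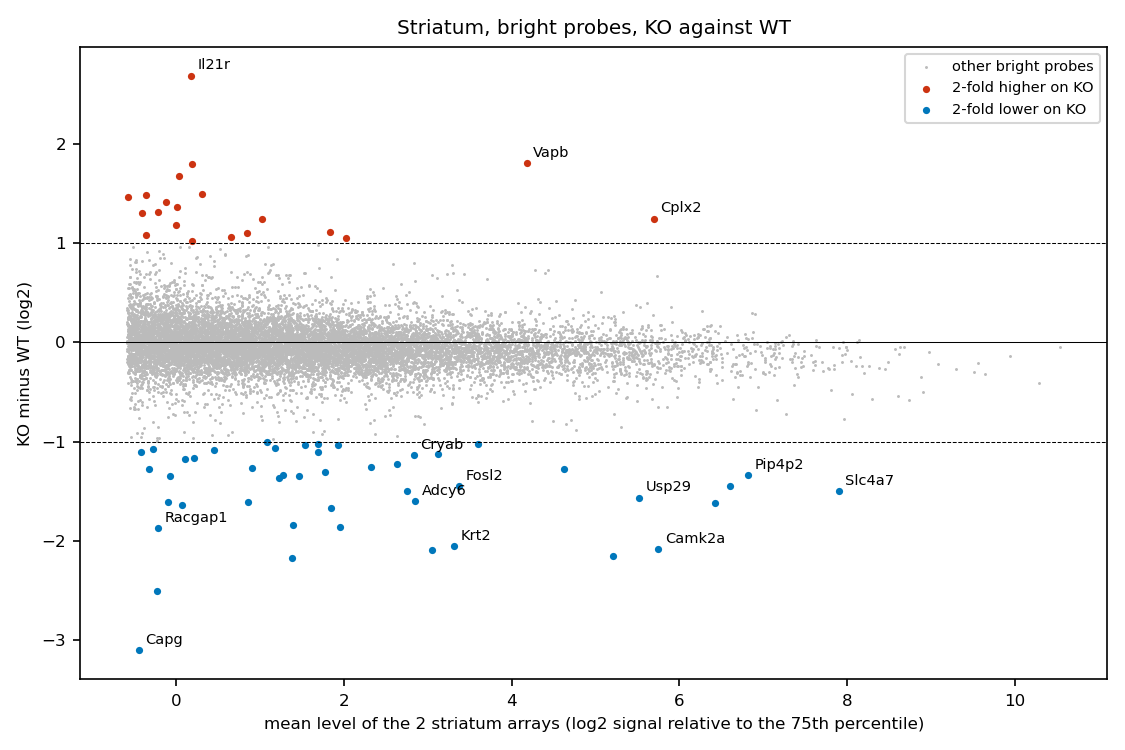
Difference between the KO and the WT striatum array (log2, vertical) against the mean level of both (log2 signal relative to the 75th percentile, horizontal) for the 12302 bright probes, 1 point a probe. Dashed lines mark 2-fold; 20 probes lie above and 46 below, among them Capg, Camk2a and Krt2.

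With 1 brightest probe for each gene, 32 of 7341 named genes (0.436%) were 2-fold apart, and 9 of them were higher in the KO striatum. Il21r, the receptor for interleukin-21 known from lymphocytes, stood at -1.17 on the WT array and 1.52 on the KO array, a difference of 2.69 or 6.46-fold. Its KO spot was drawn unusually small, with an extent of 39.1 against a median of 49.2 over all bright spots. Vapb, a membrane protein of the endoplasmic reticulum at contact sites with other organelles, went from 3.27 to 5.08, a difference of 1.81. P2ry1, a receptor for ADP, read -1.11 on WT and 0.38 on KO, which makes a difference of 1.49. The immediate early gene Npas4, a transcription factor induced by neuronal activity, had levels of -0.83 and 0.59 and a difference of 1.42. For Nr4a2, the nuclear receptor also called Nurr1 that dopamine neurons need, the levels were -0.67 and 0.70 and the difference 1.37. These 5 genes were picked for a difference of at least 2-fold, so its excess over the median spot error is no separate result. Prss12, the synaptic protease neurotrypsin, differed by 1.11, F11r, a junctional adhesion molecule, by 1.07, Slc49a4, a solute carrier, by 1.12 and Spag7 by 1.30. With the normexp correction Prss12, F11r and Spag7 were no longer 2-fold apart, at 0.91, 0.93 and 0.90.

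Lower in the KO striatum were 23 named genes by their brightest probe. Capg, which caps actin filaments, stood at 1.11 on WT and -2.0 on KO, a difference of -3.11 or 8.62-fold. Its WT spot had an extent of 36.1, the smallest of all 24604 spot values of the bright probes. With a normexp background correction its difference was -1.90. Camk2a, the alpha subunit of the calcium/calmodulin-dependent kinase II that is abundant at excitatory synapses, read 6.79 on WT and 4.71 on KO and thus differed by -2.08, or 4.24-fold. The keratin gene Krt2 went from 4.34 to 2.29, a difference of -2.05. Racgap1, a GTPase-activating protein that dividing cells need for cytokinesis, read 0.72 and -1.15, a difference of -1.87. Adcy6, one of the adenylyl cyclases that make cyclic AMP, stood at 3.65 and 2.05, which is a difference of -1.60. Usp29, a deubiquitinase gene of the imprinted Peg3 domain, read 6.30 and 4.74, a difference of -1.57. The sodium bicarbonate cotransporter gene Slc4a7 read 8.65 and 7.15, and its difference was -1.50. These 7 were likewise picked as large falls, so their excess over the median spot error of 0.20 is no separate result.

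Further named genes lower by 2-fold or more were Col24a1, a fibrillar collagen, at -1.64, Taf15, an RNA-binding protein, at -1.61, Tgm5, a transglutaminase, at -1.50 and Fosl2, an AP-1 transcription factor, at -1.45. Pip4p2, a phosphoinositide phosphatase, differed by -1.34, AU018091 by -1.33, the adaptor Gab3 by -1.28 (-0.99 with normexp) and Lifr, the receptor for leukaemia inhibitory factor, by -1.26.

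The 66 probes were then read in the other regions. Of the 46 lower probes, 23 were also 2-fold lower in at least 1 of 4 other regions (olfactory bulb, prefrontal cortex, hippocampus and hypothalamus), and 13 in at least 2. Over all bright probes those shares were 3.41% and 0.415%. Of the 20 higher probes, 0 were 2-fold higher in any of these 4, against 0.39% of all. All 20 higher probes and 33 of the 46 lower ones lay outside the range of the 4. So did 52.7% of all bright probes, and probes picked for a large striatum difference fall outside that range more readily. Fosl2 differed by -1.16 in the olfactory bulb, -1.42 in the prefrontal cortex, -1.78 in the hippocampus and -0.21 in the hypothalamus, so the striatum value of -1.45 lay within their range. Krt2 read -1.35, -1.99, -1.58 and 0.04 in the same order, and Lifr -1.46, -1.14, -0.46 and 0.19. By contrast, the differences of Camk2a in the 4 regions ran from -0.31 to 0.02, those of Capg from -0.30 to 0.27 and those of Adcy6 from -0.33 to 0.03. Il21r spanned -0.96 to 0.03, P2ry1 0.06 to 0.25, and Nr4a2 -0.61 to -0.17.

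**Figure D2:**
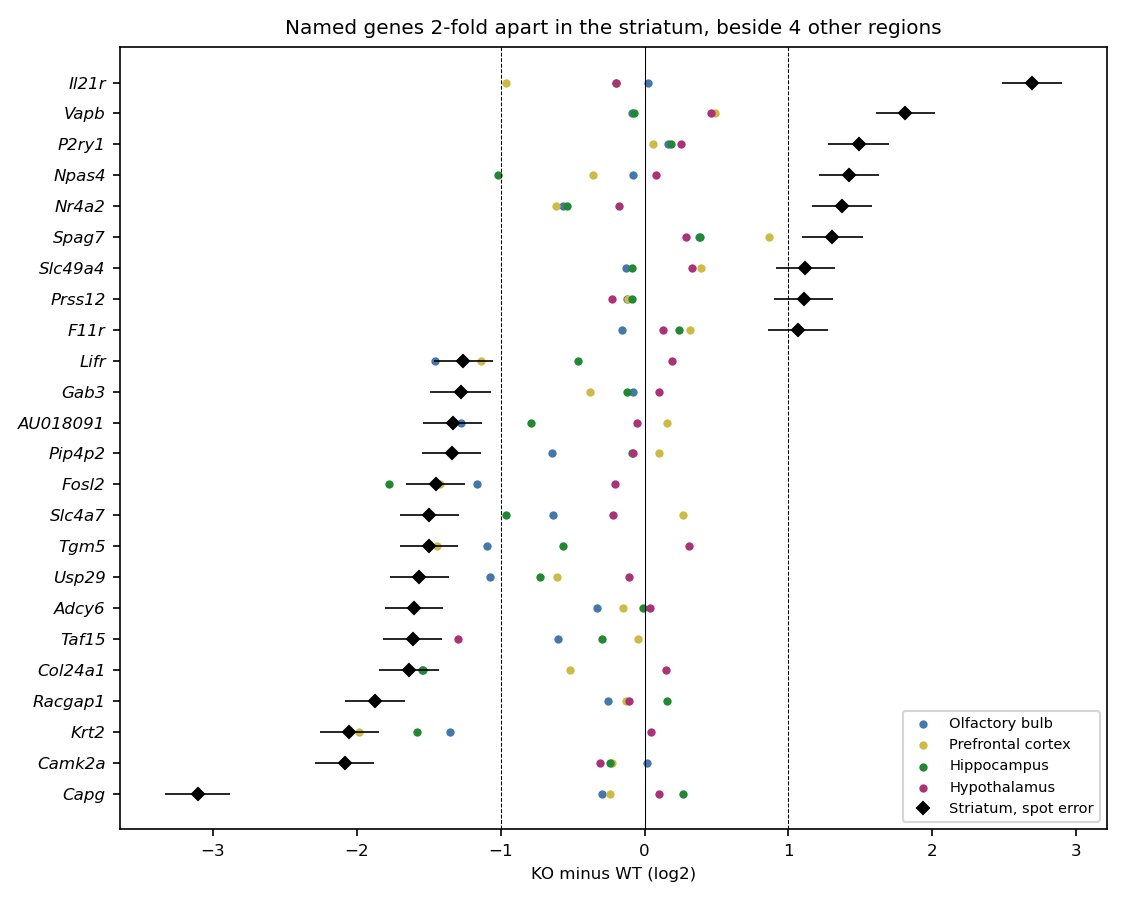
KO minus WT (log2) of 24 named genes 2-fold apart in the striatum, all 9 rises and the 15 largest falls by the brightest probe. Black diamonds are the striatum, with bars for the scanner software's spot error. Coloured points are the same difference in 4 other regions (1 pair of arrays each). The 9 higher genes stand to the right of all 4 other regions, while Fosl2, Krt2 and Lifr have other regions close to the striatum value.

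A fit across regions set the striatum difference against that of the 4 other regions. With 1 striatum pair, its errors and p-values come wholly from the spread between the other regions and hold no spread between striatum samples. It used limma on 10 arrays with region as a block, left out the amygdala pair, and assumed that the lone striatum pair varied like the other 4, with 3 residual degrees of freedom. Of 30951 probes tested, 290 (0.937%) passed at an adjusted p of 0.05. Among the 12290 bright probes tested, 15 (0.122%) passed, 7 with a more positive and 8 with a more negative difference in the striatum. That share lay below the share of all probes and is no result about the bright probes as a set. All 15 were among the 66.

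Of these 15 probes, 12 had a gene symbol. Relative to the other regions, limma put Capg at -3.06 ± 0.26 (SE; adjusted p = 0.0262), Camk2a at -1.89 ± 0.17 (adjusted p = 0.0262) and Racgap1 at -1.79 ± 0.19 (adjusted p = 0.0332). Adcy6 followed at -1.49 ± 0.18, with an adjusted p of 0.0459. On the other side were Il21r at 3.02 ± 0.39 (limma, adjusted p = 0.0499), Nr4a2 at 1.85 ± 0.21 (adjusted p = 0.0384), P2ry1 at 1.32 ± 0.13 (adjusted p = 0.0314) and Prss12 at 1.24 ± 0.13 (adjusted p = 0.0314). Srek1, an RNA splicing factor, was at 1.41, and Suds3, a subunit of the Sin3 histone deacetylase complex, was at 1.19. Bcl7c, of the BAF chromatin remodelling complex, was at -1.40. Npas4, with a coefficient of 1.76, and Vapb, with 1.61, did not pass (limma, adjusted p = 0.158 and 0.0969), nor did Krt2 at -0.83 (adjusted p = 0.670) or Fosl2 at -0.31 (adjusted p = 0.851). The calls, though not the size of the coefficients, rested on all 4 regions. With 1 region left out, Capg ran from -3.15 to -2.96 and Camk2a from -1.93 to -1.83. The same striatum pair entered each of those fits, with fewer arrays beside it. Leaving out the olfactory bulb, prefrontal cortex, hippocampus or hypothalamus left 0, 1, 0 and 0 of 12290 bright probes past the limma threshold. At an unadjusted limma p under 0.05 there were 429, 793, 366 and 544 of the 12290. With all 4 regions they numbered 644 of 12290, against 4616 of all 30951 probes, so these counts mark no genes as changed. Without the prefrontal cortex Il21r was the one that passed. With the amygdala pair added, 13 bright probes passed, and P2ry1, Prss12, Suds3 and Nr4a2 no longer did (limma, adjusted p = 0.0847, 0.170, 0.0502 and 0.0652).

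Other probes of the same gene were read wherever they were bright too. Of the 40 named genes, 10 had at least 1 other bright probe, and in 0 of these 10 did another probe differ 2-fold in the same direction. The Vapb probe at 1.81 stood beside probes at -0.13 and 0.05. Cplx2, a complexin of the synaptic vesicle release machinery, had a probe at 1.25 and others at -0.32 and 0.07. For Srek1 the probe at 1.46 stood beside 0.26 and -0.55. Mapt, the microtubule protein tau, read -1.28 on one probe, and -0.07 and -0.00 on the others. Usp29 read -1.57 and -0.08, and Bcl7c -1.17, -0.12 and 0.05. Suds3 read 1.24 and 0.08. Chmp4b, of the ESCRT-III complex, came nearest with 1.06 and 0.34, and Ptms, parathymosin, with -1.13 and -0.25. Capg, Camk2a, Il21r, Nr4a2, Npas4, P2ry1, Adcy6 and Fosl2 had a single bright probe, so no other probe was read for them. Probes can detect different transcripts of a gene, and which transcript each one detects was not examined.

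**Figure D3:**
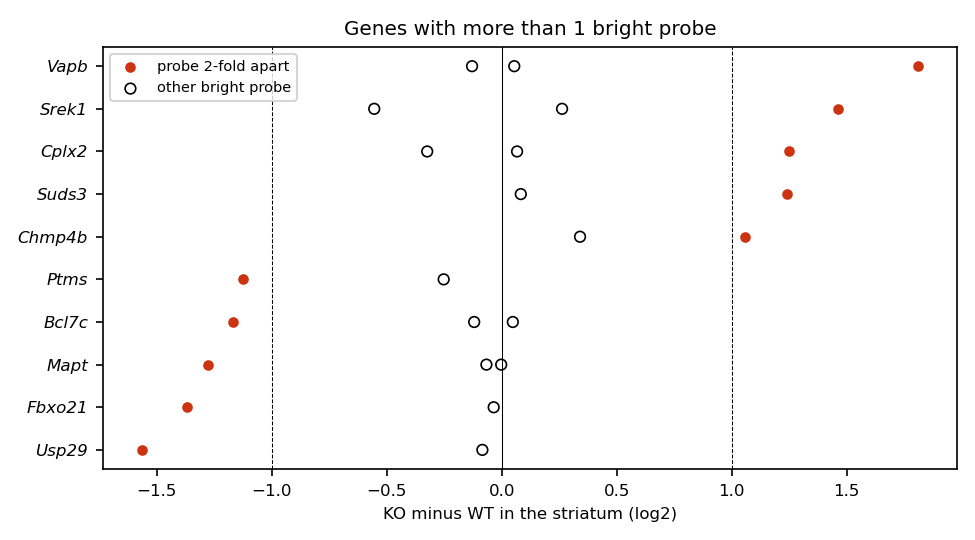
KO minus WT in the striatum (log2) of every bright probe of the 10 genes that had a probe 2-fold apart and at least 1 other bright probe. Filled points are the 2-fold probes and open points the other probes, all of which lie between -0.55 and 0.34.

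Immediate early genes, which neurons transcribe within minutes of activity or stress, were mostly lower in the KO striatum. Of 19 with a bright probe (27 on the array), 15 were lower and 4 higher, with a median difference of -0.23 against -0.06 over all 7341 named genes, of which 62.4% were lower. Against that median, 5 of the 19 lay above and 14 below. Their medians in the olfactory bulb, prefrontal cortex, hippocampus and hypothalamus were -0.30, -0.30, -0.13 and -0.17. A pair of these genes ran the other way by more than 2-fold, Nr4a2 and Npas4. The promoters of the largest on either side are shown because many immediate early genes respond to cyclic AMP and calcium through the cyclic AMP response element (CRE) bound by CREB. Each is the 250 bases before the transcript start from RefSeq on GRCm38.p6, 5′ to 3′ on the gene's strand. Nr4a2 lies at chr2:57124004-57124253 on the minus strand, Npas4 at chr19:4989972-4990221 on the minus strand, Nr4a1 at chr15:101266596-101266845 on the plus strand and Fosl2 at chr5:32136222-32136471 on the plus strand. Capitals mark the CRE core TGACG or, on the other strand, CGTCA.
Nr4a2 promoter: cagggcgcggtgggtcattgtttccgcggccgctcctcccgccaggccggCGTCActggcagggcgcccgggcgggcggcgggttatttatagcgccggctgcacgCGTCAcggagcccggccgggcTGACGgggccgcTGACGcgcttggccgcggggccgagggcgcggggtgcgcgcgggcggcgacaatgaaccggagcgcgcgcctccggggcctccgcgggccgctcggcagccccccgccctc
Npas4 promoter: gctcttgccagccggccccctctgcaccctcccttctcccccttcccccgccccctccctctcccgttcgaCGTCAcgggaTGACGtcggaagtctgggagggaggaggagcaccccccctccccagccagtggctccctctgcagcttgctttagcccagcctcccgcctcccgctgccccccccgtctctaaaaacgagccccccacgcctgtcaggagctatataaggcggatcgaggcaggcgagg
Nr4a1 promoter: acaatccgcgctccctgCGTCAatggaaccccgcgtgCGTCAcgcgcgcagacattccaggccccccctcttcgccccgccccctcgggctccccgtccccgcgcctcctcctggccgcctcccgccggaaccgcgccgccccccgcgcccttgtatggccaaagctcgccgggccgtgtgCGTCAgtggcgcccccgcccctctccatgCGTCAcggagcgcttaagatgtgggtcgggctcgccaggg
Fosl2 promoter: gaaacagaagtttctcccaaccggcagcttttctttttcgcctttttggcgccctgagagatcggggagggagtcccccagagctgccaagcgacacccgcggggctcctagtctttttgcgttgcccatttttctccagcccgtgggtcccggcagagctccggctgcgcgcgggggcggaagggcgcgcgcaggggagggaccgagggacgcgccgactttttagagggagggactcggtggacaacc
The core occurred 4 times in the Nr4a2 promoter, 2 times in Npas4, 4 times in Nr4a1 and 0 times in Fosl2. Of 16 of the 19 genes that had a promoter entry, 11 held a core and 2, Dusp1 and Btg2, the full element TGACGTCA, in which 2 cores overlap. Among all genes with such an entry, 19.8% held the core and 1.77% the full element, over the same length. The core thus occurred on both sides of the comparison, in Nr4a2 and Npas4 as in Nr4a1.

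Nr4a1, the nuclear receptor related to Nr4a2, read 5.58 on WT and 4.86 on KO, a difference of -0.72. Arc, a synaptic protein that regulates AMPA receptors, differed by -0.51, Egr2 by -0.47, the kinase phosphatases Dusp6 and Dusp1 by -0.40 and -0.37, and Junb by -0.32. Homer1, a postsynaptic scaffold, differed by 0.34 and Jun by 0.09. In the 4 other regions Nr4a1 ran from -0.82 to -0.18 and Egr2 from -0.81 to -0.27, while Npas4 ran from -1.02 to 0.08. The striatum values of Nr4a1 and Egr2 therefore lay within those ranges and that of Npas4 above its range.

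Genes that define striatal projection neurons stayed close to 0. Of 29 with a bright probe (36 on the array), 12 were higher and 17 lower, their median was -0.05, and none reached 1.5-fold, which 1.78% of all named genes did. The dopamine receptor Drd1 differed by 0.17 and Drd2 by -0.05, the adenosine receptor Adora2a by -0.05, and Ppp1r1b, which encodes the dopamine-regulated phosphatase inhibitor DARPP-32, by 0.20. The peptide precursors Penk, Pdyn and Tac1 were at -0.10, 0.14 and 0.28, and another bright probe of Penk was at 0.53. The ends of the list were the transcription factors Meis2 at -0.32 and Bcl11b at 0.29. Among 10 dopamine signalling genes (18 on the array), Nr4a2 was the only one 1.5-fold apart.

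Genes typical of the cerebral cortex were spread more widely. Of 10 with a bright probe, 6 were higher and 4 lower, while 37.6% of all named genes were higher. Neurod2, a transcription factor of excitatory neurons, differed by 0.75, the peptide Cck by 0.69, neuritin Nrn1 by 0.66 and Ccn2 by 0.48, against -2.08 for Camk2a and -0.26 for Mef2c. In the other 4 regions Cck ran from -0.28 to -0.17 and Neurod2 from -0.24 to 0.09. Over all 22 cortical genes on the array, 16 were well above background on both arrays, 3 on the KO array only and 0 on the WT array only, and the summed level, which Camk2a dominates, was 7.58 on WT and 6.79 on KO. The defining genes Neurod6 and Tbr1 were well above background on the KO array only, as were 2867 of all 41174 gene probes. The part of cortex in the slice was not tested.

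Receptor and channel genes came next. The 11 glutamate receptor genes with a bright probe, of 18 on the array, were all lower by their brightest probe, as were 62.4% of all named genes. Their median was -0.14, with Grik5 at -0.30. For Gria1 and Gria4 the brightest probe was at -0.20 each, but another bright probe was higher, at 0.19 and 0.14. Against the median of all genes 3 lay above and 8 below, and none reached 1.5-fold. Their medians in the other 4 regions were -0.13, -0.40, -0.16 and -0.05. Of 8 GABA-A receptor genes (12 on the array), 5 were higher, among them Gabrb1 at 0.46, against 37.6% of all named genes. Their median was 0.17, and with a gene's probes averaged it lay 0.09 above that of all genes. Among 17 potassium channel genes (30 on the array) Kcnj4, an inward rectifier, was highest at 0.67, from 5.40 on WT to 6.07 on KO, against -0.12 to 0.00 in the other regions. Of 14 neuropeptide and granin genes (30 on the array), 10 were higher, against 37.6% of all named genes. Cck was at 0.69, Agt, which encodes angiotensinogen, at 0.54, Scg2 at 0.46 and Chgb at 0.36, and Gal was lowest at -0.28.

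Among glial lists, 11 of 13 oligodendrocyte genes (18 on the array) were lower, against 62.4% of all named genes, with a median of -0.09. Against the median of all genes 4 lay above and 9 below, a list median only -0.03 from it. The myelin proteins Mobp and Mbp read 2.84 and 8.88 on WT and 2.28 and 8.33 on KO, differences of -0.56 and -0.54; over all their bright probes the means were -0.33 and -0.45. In the other 4 regions Mbp ran from -0.06 to 0.07 and Mobp from 0.04 to 0.23. Enpp2, which oligodendrocytes and choroid plexus share, was higher by 0.70. Of 13 microglial genes (17 on the array), 8 were higher, against 37.6% of all named genes, with a median of 0.11. The complement genes C1qb and C1qa differed by 0.48 and 0.46 and the signalling adaptor Tyrobp by 0.42, against -0.45 for Laptm5, and C1qa ran from 0.26 to 0.68 in the other regions. Of 14 astrocyte genes (16 on the array), 5 were higher and 9 lower, near the 62.4% of all named genes that were lower. Glul, glutamine synthetase, was at -0.37 and the gap junction gene Gja1 at 0.28.

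Most chaperone genes read higher. Of 22 (26 on the array), 15 were higher, against 37.6% of all named genes, with a median of 0.09. Hspa5, the main chaperone of the endoplasmic reticulum, read 3.39 on WT and 4.03 on KO, a difference of 0.64 against 0.09 to 0.20 in the other regions. Sdf2l1 and Hyou1, of the same compartment, differed by 0.37 and 0.31. Hspa8 differed by 0.38, although the mean of its 2 bright probes was 0.15. Cryab, a small heat shock protein, differed by -1.14. Housekeeping groups showed little shift. The 42 ribosomal protein genes had a median of -0.06 and the 44 respiratory chain genes one of -0.03, with none at 1.5-fold.

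**Figure D4:**
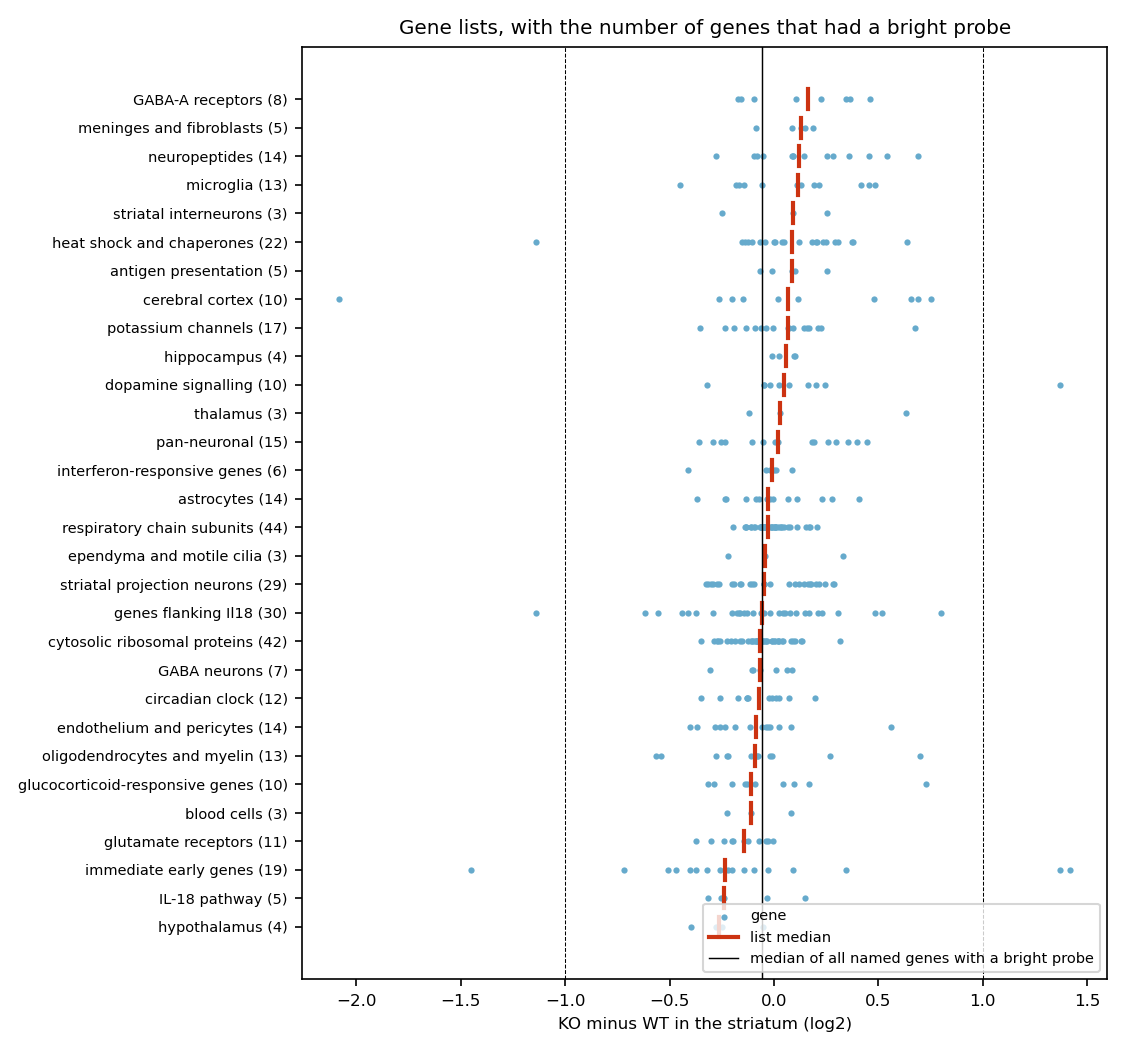
KO minus WT in the striatum (log2) of the genes in each list with at least 3 genes that had a bright probe (blue points, brightest probe of a gene; the number of genes in brackets). Red bars are list medians and the black line is the median of all named genes, -0.06; the immediate early and glutamate receptor medians lie below that line and the chaperone, microglial and GABA-A receptor medians above it.

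Genes of the IL-18 pathway itself were few among the bright probes. Of 32 on the array, 5 had one. Nfkbia, an inhibitor of NF-kB that NF-kB induces, differed by -0.32, the kinase Irak1 by -0.25, the related cytokine Il33 by -0.24, the IRAK inhibitor Tollip by -0.03 and the inflammasome adaptor Pycard by 0.15. None reached 1.5-fold. Il33 ran from 0.06 to 0.37 in the other 4 regions.

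Genes close to Il18 on chromosome 9 were counted apart. Within 50 named genes on either side, counting those with a bright probe, 6 of 100 (6%) were 1.5-fold apart, against 1.73% of the 7241 other named genes. Of the 100, 41% had the same sign in the striatum and all 4 other regions, against 26% elsewhere. Cryab, 5 genes from Il18, read 3.40 on WT and 2.26 on KO, and its difference of -1.14 stood beside -1.48, -1.06, -0.86 and -1.11 in the other regions. Alg9, a mannosyltransferase, differed by -0.62 against -0.69 to -0.42 elsewhere. Pts, next to Il18 and needed to make tetrahydrobiopterin, differed by -0.55 against -0.69 to -0.28, and Fdx1, a mitochondrial ferredoxin, by 0.49 against 0.44 to 0.83. Ncam1, the neural cell adhesion molecule, was at 0.80 and above its range of 0.15 to 0.32. Farther out were Fxyd6 at 0.73, Slc37a4 at 0.69 and Stra6 at -0.94. Animals of all arrays came from the same cross, so the loss of Il18 and the chromosome segment around it cannot be told apart.

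**Figure D5:**
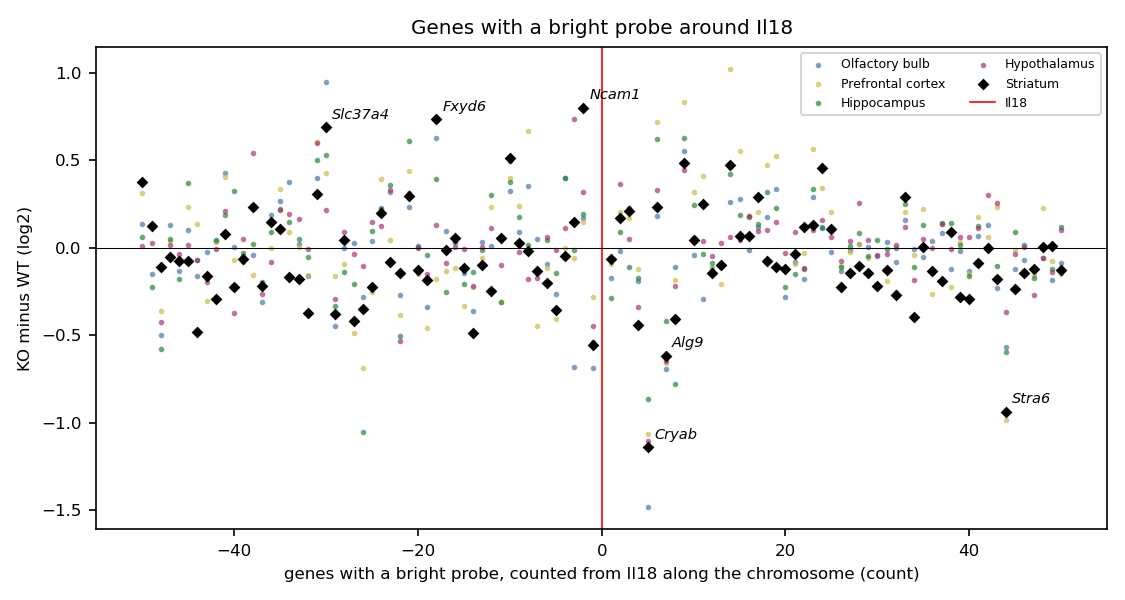
KO minus WT (log2) of the 100 named genes with a bright probe nearest to Il18, in gene order (horizontal axis, number of genes from Il18, the red line). Black diamonds are the striatum and coloured points 4 other regions; at Cryab and Alg9 the points of all 5 regions lie below 0.

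The differences of all bright probes were correlated between regions as a description. Over 12300 to 12302 probes, Pearson's r of the striatum difference was 0.35 with the olfactory bulb, 0.23 with the hippocampus, 0.18 with the prefrontal cortex and 0.16 with the hypothalamus. Between pairs of those 4 it ran from 0.43 to 0.70. Of 12300 bright probes with a value in all 5 regions, 27.7% had 1 sign in all. These values describe probes on 5 pairs of arrays, probes are not independent, and all pairs shared the same slide positions for WT and KO.

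In the authors' deposited table of KO over WT ratios, 68 of the 12302 bright probes were 2-fold apart, 20 higher and 48 lower. Relative to the unscaled signals, those ratios carried a shift of -0.39 on the log2 scale, and the differences computed here one of -0.38. With the deposited ratios the median difference of the bright probes therefore moved by only -0.007.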

How the data were processed

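RNA from 6 brain regions of WT and KO mice was hybridised to 12 one-colour Agilent arrays, 1 per region and genotype, on 6 slides, with WT and KO at the same places on each slide, so position and genotype cannot be told apart. The deposited intensity of each spot came from Agilent Feature Extraction 9.5.3.1, which had subtracted background and removed spatial trends, per the file headers. A ratio of KO over WT per probe was deposited too, and its scaling was not given in the sources used here. The spot extent is a width from the deposited scanner output.

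Processed intensity was put on a log2 scale and lowered by the 75th percentile over the gene spots of its array. Outlier spots (68 on WT, 61 on KO) were left out and the spots of a probe averaged. Probes were named through RefSeq accessions (GRCm38.p6). A gene was represented by its bright probe of highest mean. The region test used limma 3.58.1 (R 4.3.3) on probes well above background on at least 6 arrays with values on all, adjusted by Benjamini-Hochberg, and was tested on simulated data. Named were the 15 largest rises and falls of at least 2-fold by that probe (9 rises reached it), up to 4 genes a list, genes past the region test, and neighbours of Il18 at 1.5-fold; further genes in the text were picked with their values known. The members and gene lists were chosen with earlier results of these data known. Some genes of these lists are not reported here. The precision is limited by the number of arrays. Alternatives were other scalings, normexp with an offset of 50 on the median signal (the files used hold no mean signal), other brightness limits, the mean of a gene's probes and other sets of regions.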

Additional observations from a re-analysis of the deposited data

Results flagged for a closer look

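Of the 15 bright probes whose striatum difference departed from the 4 other regions in the limma test, 14 are given here with that departure on the log2 scale. More negative in the striatum were Capg at -3.06, the unnamed probes A_51_P289160 at -2.20 and A_51_P222543 at -2.08, Camk2a at -1.89, Racgap1 at -1.79, Adcy6 at -1.49 and Bcl7c at -1.40. More positive were Il21r at 3.02, the unnamed probe A_52_P273935 at 2.07, Nr4a2 at 1.85, Srek1 at 1.41, P2ry1 at 1.32, Prss12 at 1.24 and Suds3 at 1.19. Each rests on 1 striatum pair, the calls were lost (0 or 1 left) when any 1 of the 4 other regions was left out, and the other bright probes of Srek1, Bcl7c and Suds3 did not differ 2-fold.

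The medians of 3 lists were above 0 in the striatum and below 0 in each of the 4 other regions, a difference that was not tested. These were 0.028 for 3 thalamic genes, 0.060 for 4 hippocampal genes and 0.13 for 5 genes of meninges and fibroblasts. All 3 medians were smaller than the median spot error of a bright probe, 0.20. Outside the bright probes, 7 of 13 choroid plexus genes passed the background rating in the KO striatum but not in the WT striatum. So did 2867 of all 41174 gene probes.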

How the results depend on the processing

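The 24 named genes had 120 values under 5 other scalings and corrections; 0 changed sign and 115 stayed 2-fold. Under normexp Spag7 (0.90), Prss12 (0.91), F11r (0.93) and Gab3 (-0.99) did not, nor did F11r (0.98) under median scaling. Of 231 list medians taken relative to all genes, 220 moved by less than their spread. The median of all bright probes shifted by -0.08 under median scaling, with 17 higher and 59 lower of 76, and by 0.05 under quantile scaling of the striatum arrays and under normexp. Normexp gave 13 higher probes and an Il18 difference of -2.73. Without the brightness limit 389 probes were 2-fold apart (189 higher, 200 lower) and the relative medians were 0.0049 for cortex, -0.12 for hypothalamus, 0.11 for blood cells and 0.0069 for antigen presentation. Among the 6151 brightest probes they numbered 32 (4 higher, 28 lower), with 0.016 for cortex, 0.064 for microglia, 0.28 for neuropeptides and -0.078 for GABA-A receptors. At 1.5-fold there were 309 (144 higher, 165 lower), and by 1 probe a gene 32 named genes (9 higher, 23 lower). With the mean of a gene's probes the relative medians were 0.21 for cortex, 0.17 for pan-neuronal genes and 0.089 for GABA-A receptors. In the limma region test, all probes gave 456 calls with quantile normalization, 48 with normexp and 29 among brighter probes, and bright probes gave 32 with trend and robust variance. Leaving out 1 region gave 0 to 1 calls among bright probes and 0 to 49 among all. At an unadjusted limma p under 0.05 there were 3977 to 5269 of all 30951 probes, against 4616 with all 4 regions. Fewer arrays enter those fits; the cause of the other changes was not tested. Without the 2-fold probes with a spot extent under 40, a limit chosen after seeing the data, 64 were left. No paired analysis was possible because the striatum had 1 pool per genotype and the labels carry no replicate numbers; the region test alone pairs WT and KO, by region. The low signal of the striatum arrays limits what dim probes can show.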

Other observations

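Some groups not described above held single genes that stood away from their list. Ddit4, an inhibitor of mTOR signalling that glucocorticoids induce, read 3.92 on WT and 4.65 on KO, a difference of 0.73 against -0.21 to -0.00 in the 4 other regions, while the median of the 10 glucocorticoid-responsive genes was -0.11. Fkbp5, another such gene, differed by -0.13 against -0.86 to -0.21 elsewhere. Bsg, basigin of the vascular wall, differed by 0.56, and Cdh5 by -0.40, while 7 of the 14 endothelial and pericyte genes lay above and 7 below the median of all named genes. Of 12 clock genes none reached 1.5-fold, and Ciart was lowest at -0.35. Among 6 interferon-responsive genes Stat2 was at -0.41 and the others between -0.04 and 0.09. Of 15 pan-neuronal genes, 9 were higher, against 37.6% of all named genes. They ran from Syt1 at -0.36 to the neurofilament gene Nefm at 0.44.

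Probes designed to cDNA clone accessions of the AK series made up 12.3% of the bright probes, 7 of the 20 higher and 9 of the 46 lower ones. Their median difference was -0.00 in the striatum, -0.08 in the olfactory bulb, -0.19 in the prefrontal cortex, -0.13 in the hippocampus and -0.07 in the hypothalamus.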
